A study of Mus musculus with 16 samples.

Results

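The cytosolic ribosomal protein genes are described here in mouse liver. They were taken as the protein-coding rows of the gene count table whose symbols are Rpl or Rps with a number, together with Rplp0, Rplp1, Rplp2, Rpsa and Fau, and without Rps3a1 and Rpl26. The rule found 80 genes among the 55357 rows of the table. Of these, 45 encode proteins of the large subunit, 32 proteins of the small subunit and 3 proteins of the P stalk, and they lie on 20 chromosomes. Gene-wise tests covered 76 of the 80. Rpl3l, Rpl10l, Rpl24 and Rpl39l had too few counts.

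RNA was measured in 16 livers in 4 groups of 4. Terc encodes the RNA of telomerase. The genotype of AUG livers is given as mTERC CUG/AUG, and their AUG_WT counterparts were wild type. The del7 livers carried a Terc that lacked 7 nucleotides at positions 29 to 35, and del7_WT livers were wild type. No liver was treated. Whether CUG/AUG means an exchanged codon or an allele pair is not stated, nor are strain, age and sex. The labels do not say that replicates were separate animals, so each p-value reflects sample-to-sample spread. How much of that spread is technical was not tested. Within the AUG group, Rpsa-ps10, a copy of Rpsa described below, had 1, 466, 603 and 0 counts. Terc itself is not analysed here. Hepatocyte genes were abundant in every library, with the summed level of 8 markers (Alb and Apoa1 among them) at 41149 to 149126 TMM-scaled counts per 1000000 (CPM). The libraries held 7714058 to 14629022 counts in genes.

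Cytosolic ribosomes translate nuclear-encoded messages, and each is built from a small subunit, which reads the messenger RNA, and a large subunit, which joins amino acids. The subunits need their proteins in equal numbers, except for those of the stalk, which recruits the elongation factors. The genes are scattered over the genome and highly transcribed. Their messages begin with a run of pyrimidines, the 5′ terminal oligopyrimidine (TOP) motif, through which growth signals control translation. Many have left processed pseudogenes, which are copies of the spliced message inserted elsewhere, and a short read from such a gene may match several places.

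The start-site sequences are shown because these genes moved together between libraries. RefSeq promoter windows (GRCm38.p6, 250 bases before to 50 bases after each start) were found for 60 of the 80 genes by symbol. An unbroken run of at least 7 pyrimidines lay within 20 bases on either side of a start in 38 of the 60 genes (63.3%), against 7392 of 26965 other genes (27.4%). The sequence CCGGAAG, the core bound by ETS transcription factors, was found on either strand in 24 of the 60 (40.0%), against 9.86% of the other genes, and in 8.86% of all 32851 promoter windows. AAGATGG, the core of the YY1 motif, was found on either strand in 10 of the 60, which is 16.7%, against 7.26% of the other genes, and TATAAA in 6 of 60, which is 10.0%, against 15.7%. CCGGAAG and AAGATGG can share AAG, a gene was counted once per string, and a match describes letters only. Shown are 10 bases before and 20 from the annotated start, in the sense of the gene, with the longest pyrimidine run in capitals, for 5 genes that the results turn on and for Fau, which has the longest run of the 6. The windows lie at chr7:118116128-118116157 (minus strand) for Rps15a, chr7:45128726-45128755 (minus) for Rpl13a, chr9:64173377-64173406 (plus) for Rpl4, chr19:6057937-6057966 (plus) for Fau, chr17:27635225-27635254 (minus) for Rps10 and chr5:115559457-115559486 (plus) for Rplp0.
Rps15a: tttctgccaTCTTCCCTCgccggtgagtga
Rpl13a: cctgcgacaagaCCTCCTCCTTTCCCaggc
Rpl4: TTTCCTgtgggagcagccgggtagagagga
Fau: gcccccaCTTCTTCCTCTTTCTTgactcca
Rps10: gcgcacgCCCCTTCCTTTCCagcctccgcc
Rplp0: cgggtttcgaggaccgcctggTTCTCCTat
The run was 16 bases in Fau, 14 in Rpl13a and 13 in Rps10. It was 9 in Rps15a, 7 in Rplp0 and 6 in Rpl4. The run in Rpl4 lies wholly before the annotated start and reaches the edge of the stretch shown, so it may be longer. Those in Rplp0 and Rpl13a begin after the annotated start.

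The 76 tested genes shifted together from library to library, and the shift was widest among the wild types of the AUG line. The mean over the genes of log2 CPM minus each gene's own mean over the 16 libraries was 0.06, -0.10, -0.15 and -0.02 in AUG replicates 1 to 4, against 0.43, -0.23, 0.03 and 0.30 in AUG_WT. It was -0.02, -0.04, 0.12 and -0.03 in del7, against -0.27, -0.15, 0.00 and 0.08 in del7_WT. The AUG livers lay inside the range of the AUG_WT livers, and the del7 livers overlapped the del7_WT livers. The SD of this mean was 0.09 in AUG, 0.29 in AUG_WT, 0.08 in del7 and 0.16 in del7_WT (n = 4 each).

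Nearly the whole set took part at the extremes. In AUG_WT replicate 1, 72 of 76 genes were above their own mean, and in AUG_WT replicate 4, 75 were. In del7_WT replicate 1 none was, and in AUG_WT replicate 2 it was 9. Small-subunit and large-subunit genes moved alike in these libraries. In AUG_WT replicate 1 the mean deviation was 0.41 for the small subunit, 0.43 for the large subunit and 0.55 for the stalk, and in del7_WT replicate 1 it was -0.30, -0.25 and -0.21. The genes together took 0.621% to 0.733% of the counts of AUG libraries, against 0.517% to 1.26% in AUG_WT, and 0.646% to 0.768% in del7, against 0.563% to 0.722% in del7_WT.

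**Figure D1:**
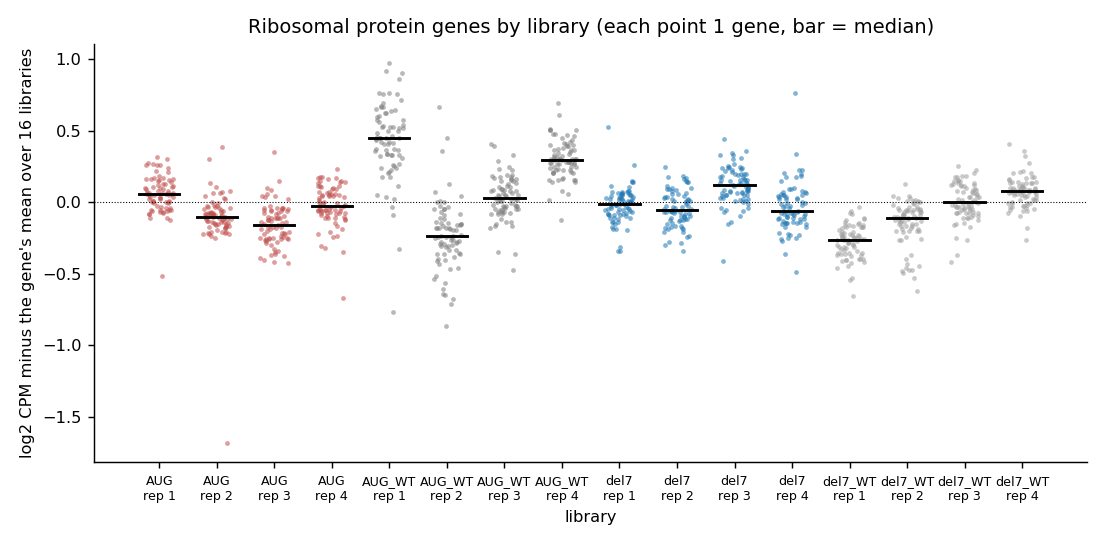
Each point is 1 of 76 ribosomal protein genes, plotted as log2 CPM minus the gene's mean over 16 libraries, in AUG, AUG_WT, del7 and del7_WT livers (4 each), and each bar is the median of a library. The medians span 0.45 in AUG_WT replicate 1 to -0.26 in del7_WT replicate 1, and the AUG libraries lie within the spread of the AUG_WT libraries.

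Once the library's median shift was taken away, most of these genes varied less, though still by more than counting error. The median SD over the 16 libraries was 0.23 on the log2 scale before and 0.12 after, where counting error alone gives 0.05. The SD became smaller in 72 of 76 genes, and it was under 0.2 in 64. TMM scaling centres most genes near 0 in each library, so that such a removal can do little for genes at large. Rps27a, which encodes a ubiquitin fused to a small-subunit protein, followed the shared shift most closely. Its remaining SD was 0.05, as was its counting error, and its correlation with the mean of the other genes was 0.97. That correlation, a description over 16 libraries that share depth and scaling, had a median of 0.82 over the 76 genes. It was above 0.8 in 49 of them, and next to Rps27a it was highest in Rps3 (0.96) and Rpl37 (0.96).

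The genes with the largest remaining SD were Rps10, Rps27l, Rps28, Rplp0, Rpl41, Rpl27, Rpl39 and Rpl35, some of them named after their values were seen. Their remaining SDs were 0.61, 0.35, 0.30, 0.29, 0.28, 0.26, 0.26 and 0.25, of which counting error gives 0.36 in Rps10, 0.12 in Rpl27, 0.11 in Rpl35 and 0.04 to 0.06 in the others. Relative to counting error, Rplp0 (7.79 times), Rps2 (7.34 times), Rps27l (6.30 times) and Rplp1 (6.04 times) departed most, and Rps10 (1.67 times) was below the median gene. Rps27l, a paralog of Rps27 that p53 is known to induce, was the only gene whose correlation with the others was negative (-0.23). Rps10 (0.25), Rps2 (0.25) and Rpl41 (0.28) came next.

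Some of what remained followed the replicate numbers. Relative to the shared shift, all 8 libraries numbered 3 or 4 were separated from all 8 numbered 1 or 2 in 8 of 76 genes. Among these, they lay above for Rps28 and Rps20, and below for Rpl12, Rpl27a, Rpl5, Rps24 and Rps7. These genes were chosen after their values were seen. Rps28, of the small subunit, lay at -0.11, -0.12, 0.31 and 0.19 in AUG replicates 1 to 4, against -0.41, -0.32, 0.36 and 0.40 in AUG_WT, and at -0.14, -0.13, 0.13 and 0.26 in del7, against -0.40, -0.51, 0.18 and 0.28 in del7_WT. The share over all genes was not computed on this scale, so the 8 of 76 have no background to be read against. In log2 CPM itself, 1 of the 76 genes (Rps28) and 31 of all 14421 (0.215%) were separated in this way. The labels name no batch, and each group holds both kinds of library. With this split as a term in the fit, 0 of 76 genes were called in any comparison, and the medians were -0.23 in AUG, 0.07 in del7 and 0.24 between the wild types.

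AUG_WT replicate 1 stood apart in other cell types as well. Every one of 6 tested B and plasma cell markers (Cd79a and Ighm among them), 5 tested T cell markers (Cd3e among them) and 4 tested proliferation markers (Mki67 among them) was highest there, and all 8 hepatocyte markers were lowest there. The summed B and plasma cell level was 36.9 to 69.8 CPM in AUG, against 56.7 to 731 CPM in AUG_WT, and 34.6 to 152 CPM in del7, against 33.6 to 72.1 CPM in del7_WT. The summed T cell level was 3.91 to 15.04 CPM in AUG, against 5.68 to 126 CPM in AUG_WT, and 4.32 to 9.61 CPM in del7, against 4.02 to 6.58 CPM in del7_WT. Proliferation markers summed to 8.80 to 16.4 CPM in AUG, against 7.02 to 376 CPM in AUG_WT, and 7.97 to 23.2 CPM in del7, against 9.57 to 19.8 CPM in del7_WT. No marker of these 3 lists was at 0 there. All 6 erythroid markers (globin genes among them) were below 0 in AUG, above 0 in del7 and above 0 between the wild types, with summed levels of 138 to 530 CPM in AUG, against 132 to 2964 CPM in AUG_WT, and 149.6 to 984 CPM in del7, against 128 to 403 CPM in del7_WT. The 2964 CPM were in AUG_WT replicate 4, the other library high in ribosomal protein genes, and the 132 CPM in AUG_WT replicate 1. All 6 markers of Kupffer cells, the macrophages of the liver, were above 0 in del7 and 5 of 6 in AUG, with summed levels of 227 to 543 CPM in AUG, against 236 to 503.5 CPM in AUG_WT, and 248 to 428 CPM in del7, against 153 to 249 CPM in del7_WT. The part of these cell types in the ribosomal protein shift was not tested. In bulk tissue, fewer cells of a type and less RNA per cell cannot be told apart. Against the mean of the other 3 AUG_WT livers, 69 of 76 ribosomal protein genes were higher in AUG_WT replicate 1, with a median log2 difference of 0.40. Rpl13a (1.00), Rps15a (0.99), Rps24 (0.95) and Rpl12 (0.93) differed most, and Rps27l (-0.94) and Rps2 (-0.37) were lowest.

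In AUG livers, ribosomal protein genes were on balance a little lower than in AUG_WT livers, and no single gene passed the test. The median log2 fold change over the 76 genes was -0.23, against -0.04 over all 14421 genes tested. It was below 0 in 74 of 76 and above 0 in 2, where 56.2% and 43.8% of all genes were. By subunit the median was -0.24 in the small subunit, with 30 of 32 below 0, -0.23 in the large subunit, with 41 of 41 below 0, and -0.21 in the stalk, with 3 of 3. With edgeR's quasi-likelihood test, 0 of 76 had a Benjamini-Hochberg adjusted p under 0.05 over all genes, where 0.0277% of all genes did, and DESeq2 and limma also called 0. Unadjusted, 9 of 76 (11.8%) were under 0.05, close to the 8.81% of all genes. In 0 of 76 did the groups not overlap, where 2.05% of all genes were apart. Without AUG_WT replicate 1 the median was -0.09 with 62 genes below 0, against a median of 0.01 over all genes. With all 8 wild types as control it was -0.10 with 69 below 0, against -0.03 over all genes.

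Rpl32, a large-subunit protein, had the smallest p, with 97.2, 91.0, 72.4 and 90.4 CPM in AUG livers, against 133, 82.9, 106 and 122 CPM in AUG_WT livers. AUG_WT replicate 2 fell among the AUG livers, so the groups overlapped. The log2 fold change was -0.34 (SE 0.14, edgeR adjusted p = 0.561). Rps26, Rps7 and Rps13, all of the small subunit, were at -0.32, -0.34 and -0.34 with the same edgeR adjusted p of 0.561. Without AUG_WT replicate 1, Rpl32 was at -0.22, Rps26 at -0.18, Rps7 at -0.18 and Rps13 at -0.22. The lowest log2 fold changes were those of Rps10 (-0.69), Rps15a (-0.52) and Rps24 (-0.38).

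Rps2 and Rps27l, both of the small subunit, were the only genes above 0. Rps27l had 76.9, 69.0, 65.7 and 70.6 CPM in AUG livers, against 37.5, 70.0, 64.9 and 82.2 CPM in AUG_WT livers. The low value was that of AUG_WT replicate 1, in which most other ribosomal protein genes were high. For Rps27l the log2 fold was 0.15 (SE 0.18, edgeR adjusted p = 0.819), and for Rps2 0.06 (SE 0.16, edgeR adjusted p = 0.926). Without AUG_WT replicate 1, in a fit of these 2 groups alone, both turned to -0.02 and -0.01. Rps2, which lies near the messenger RNA entry, had 180, 189, 174 and 201 CPM in AUG livers, against 143, 130, 202 and 236 CPM in AUG_WT livers.

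In del7 livers, ribosomal protein genes were close to their level in del7_WT livers. The median log2 fold change was 0.07, against 0.00 over all genes, and it was above 0 in 70 of 76 and below 0 in 6, where 50.1% and 49.9% of all genes were. With edgeR, 0 of 76 passed at an adjusted p under 0.05, as did 0.0% of all genes, and DESeq2 and limma called 0 of the 76. Unadjusted, 1 of 76 was under 0.05, where 1.92% of all genes were. The median was 0.01 without del7_WT replicate 1, 0.03 without del7 replicate 3 and 0.12 without del7_WT replicate 4. With all 8 wild types as control it was -0.04, close to the median of -0.03 over all genes in that fit. The genes below 0 numbered 6 in the full fit. Without del7_WT replicate 1 they numbered 31, without del7 replicate 3 24, without del7 replicate 2 10 and without del7_WT replicate 4 1.

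Rps10 was the only gene of the 76 whose del7 and del7_WT livers did not overlap, where 4.01% of all genes were apart. This small-subunit protein sits on the head of the subunit, and its ubiquitination marks stalled ribosomes in human cells. It had 2.61, 2.02, 2.02 and 3.11 CPM in del7 livers, against 1.26, 1.21, 1.43 and 1.43 CPM in del7_WT livers. These values rest on 21 to 33 counts in del7 libraries, against 11 to 18 counts in del7_WT libraries. All 4 del7 livers were higher. The log2 fold change was 0.86 (SE 0.38, edgeR unadjusted p = 0.0388, adjusted p = 1). In the AUG line it had 2.13, 0.421, 2.28 and 1.04 CPM in AUG livers, against 3.09, 2.46, 2.39 and 1.596 CPM in AUG_WT livers. There the groups overlapped, and the log2 fold change was -0.69 (SE 0.38). Rpl36 (0.20), Rps25 (0.20), Rpl13 (0.18) and Rpl18 (0.17) had the next smallest p above 0, and Rpl27a (-0.05), Rps15 (-0.04), Rps27l, Rplp0 and Rplp1 (-0.02 to -0.01) those below 0. Each had an edgeR adjusted p of 1.

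The test of the difference of effects, AUG over AUG_WT minus del7 over del7_WT, called 0 of 76 genes, where 0.00693% of all genes were called by edgeR at an adjusted p under 0.05. DESeq2 and limma also called 0. Unadjusted, 3 of 76 were under 0.05 (Rps10, Rps15a and Rps13), where 5.21% of all genes were. The median difference was -0.29, against -0.04 over all genes, and it was below 0 in 75 of 76, where 54.9% of all genes were. Without AUG_WT replicate 1 the median was -0.14. Rps10 had the largest difference, -1.56 (SE 0.54, edgeR adjusted p = 0.864). Rps15a was at -0.75 (SE 0.31), or -0.41 without AUG_WT replicate 1, and Rps13 at -0.49 (SE 0.21), with the same adjusted p.

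The wild-type groups of the 2 lines differed about as much as AUG differed from AUG_WT. Ribosomal protein genes were higher in AUG_WT than in del7_WT livers by a median log2 fold change of 0.24, against 0.03 over all genes, and 75 of 76 were above 0, where 55.4% of all genes were. With edgeR, 0 of 76 passed, where 0.0347% of all genes did, and DESeq2 and limma called 0 of the 76. Unadjusted, 10 of 76 (13.2%) were under 0.05, where 11.8% of all genes were. Without AUG_WT replicate 1 the median was 0.11. The genes below 0 numbered 9 without AUG_WT replicate 1 or 4, 4 without AUG_WT replicate 3, 5 without del7_WT replicate 1, 3 without del7_WT replicate 2 and 0 without del7_WT replicate 3. This comparison shares its AUG_WT livers with the AUG comparison and its del7_WT livers with the del7 comparison. A high AUG_WT value raises the wild-type fold change and lowers the AUG one.

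Rpl21 had the smallest p between the wild types. It had 104, 77.4, 84.3 and 100 CPM in AUG_WT livers, against 60.4, 68.8, 56.2 and 80.9 CPM in del7_WT livers. The del7_WT replicate 4 overlapped AUG_WT replicate 2. The log2 fold change was 0.46 (SE 0.14, edgeR adjusted p = 0.287). Rps13 (0.40), Rpl41 (0.44) and Rpl35 (0.46) were next among those named here, with edgeR adjusted p from 0.322 to 0.326. Rpl41 was at 0.28 without AUG_WT replicate 2, and Rpl35 at 0.24 without AUG_WT replicate 1. Over left-out libraries the lowest values were 0.37 for Rpl21 and 0.28 for Rps13. The groups did not overlap in 2 of 76 genes, Rpl4 and Rps10, where 3.53% of all genes were apart. Rpl4, which helps to line the exit tunnel of the nascent peptide, had 433, 354, 338 and 394 CPM in AUG_WT livers, against 301, 332, 315 and 331 CPM in del7_WT livers, and its log2 fold change was 0.25. Rps18 was the only gene below 0, at -0.07 (SE 0.18, edgeR adjusted p = 0.924).

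**Figure D2:**
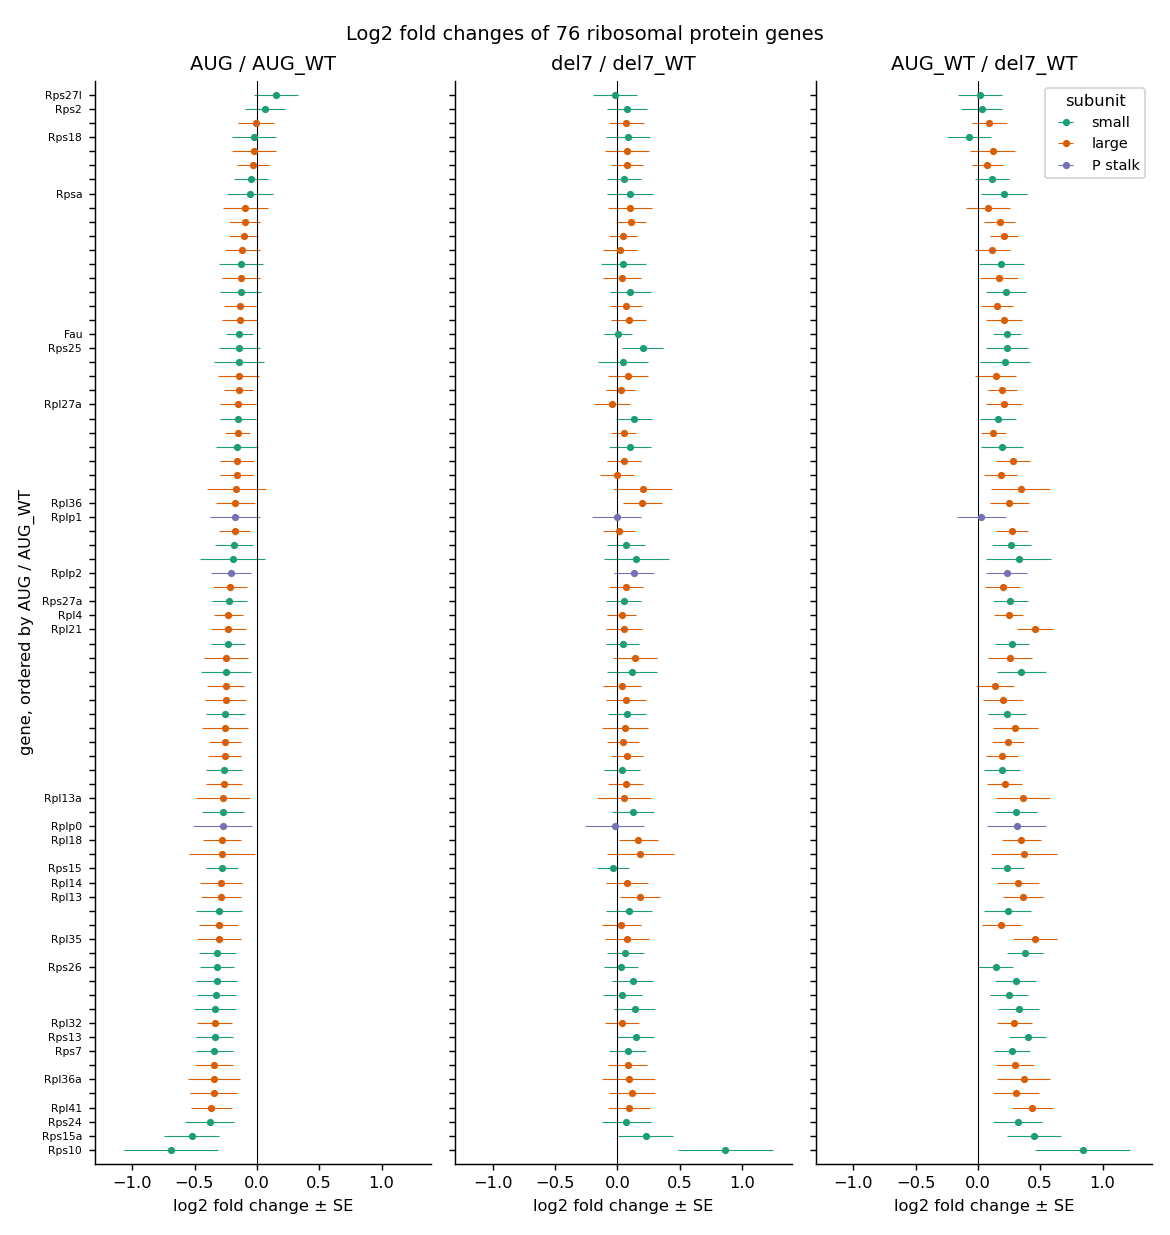
Log2 fold changes with their SE from edgeR for 76 ribosomal protein genes in AUG over AUG_WT, del7 over del7_WT and AUG_WT over del7_WT livers, coloured by subunit and ordered by the AUG column, with names for genes that the text describes. Points lie below 0 for 74 genes in the AUG column, above 0 for 70 in the del7 column and above 0 for 75 in the last column, and no gene passed the adjusted threshold in any of them.

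**Figure D3:**
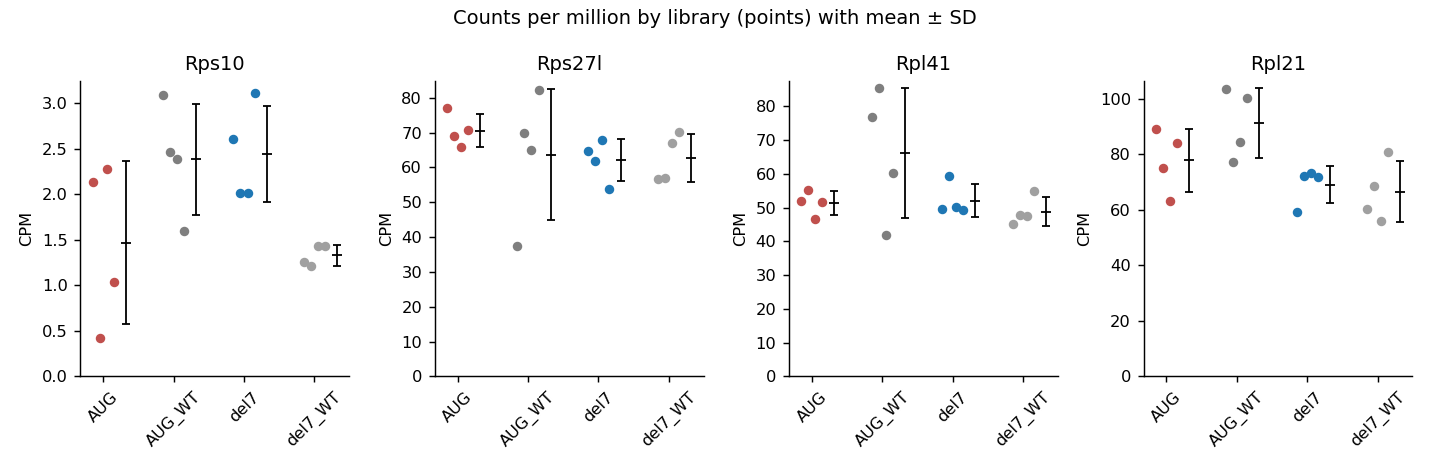
CPM of Rps10, Rps27l, Rpl41 and Rpl21 in AUG, AUG_WT, del7 and del7_WT livers, each point 1 library, with the group's mean and SD beside it (n = 4). The del7 livers lie above the del7_WT livers for Rps10, and 1 AUG_WT liver lies at 37.5 CPM for Rps27l.

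Other TOP messages had the signs of the ribosomal protein genes in AUG and between the wild types, and mitochondrial ribosomal protein genes did not. Of 22 other TOP messages (Tpt1, Npm1 and Eef1a1 among them), 19 were below 0 in AUG (median log2 fold change -0.18), 12 were above 0 in del7 (0.02) and 20 were above 0 between the wild types (0.16). Of 38 ribosome biogenesis genes (Fbl, Ncl and Nop56 among them), 22 were below 0 in AUG (-0.02), 27 above 0 in del7 (0.10) and 32 above 0 between the wild types (0.18). Of 36 translation factors, 10 of which are also among these TOP messages, 22 were below 0 in AUG (-0.02), 17 above 0 in del7 (-0.01) and 27 above 0 between the wild types (0.05). The AUG counts of these last lists are near the 56.2% of all genes below 0. Of 76 tested mitochondrial ribosomal protein genes, 59 were above 0 in AUG (0.08), 49 below 0 in del7 (-0.04) and 45 below 0 between the wild types (-0.01). No gene of these 4 lists passed edgeR's adjusted threshold of 0.05 in any of the comparisons. AUG_WT replicate 1 held the highest of the 16 values for 20 of 38 ribosome biogenesis genes, 13 of 22 other TOP messages, 7 of 36 translation factors and 0 of 76 mitochondrial ribosomal protein genes, and the lowest for 2, 1, 7 and 37.

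Levels are compared per kb of the shortest principal transcript, in CPM averaged over the 16 libraries. The 76 tested genes spanned 3.83 to 416 CPM per kb, with a median of 114. The highest were the stalk protein Rplp1 (416), Rps27 (371), Rps14 (322), Rps15 (272) and Rps12 (244). The stalk's other proteins had 114 CPM per kb (Rplp0) and 140 CPM per kb (Rplp2). Fau, whose protein is a ubiquitin-like domain fused to a small-subunit protein, had 116 CPM per kb, and Rpsa, also known as the laminin receptor, had 105 CPM per kb. The lowest tested were Rps10 (3.83), Rpl13a (8.996), Rpl35 (18.4), Rps20 (20.6) and Rpl27 (22.9). The annotated transcript of Rps20 is 3706 bases long, which lowers its value per kb.

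Among the lowest levels were those of genes that overlap another annotated gene. Each transcript was read in windows of 75 bases, and a window counted as shared if it occurred in a transcript of another gene (GENCODE M21). Rps10, Rpl13a and Rpl24 overlap, on the same strand, the annotated genes RPS10-NUDT3, Gm45713 and Gm28037. These hold 90.1%, 56.3% and 68.2% of their windows, and no counts were found for them in any library. A gene missing from the count table would give the same result. Whether the annotation used for counting holds these overlapping genes was not tested. Among the other 77 genes, Rpl19 alone shared windows with an overlapping gene (0.886%). STAR's gene counts leave out reads that fall on 2 genes, and how many were lost in this way was not tested. Rps10 and Rpl24 also shared 80.9% and 76.8% of windows with genes elsewhere. Rpl24, which forms a bridge between the subunits, had 60 counts over all libraries and 0 to 8 in each. Rpl13a, which in human cells also represses inflammatory messages, had 8.89, 9.36, 9.89 and 8.46 CPM in AUG, against 17.6, 7.49, 9.55 and 9.34 CPM in AUG_WT, and 10.2, 7.59, 9.13 and 8.71 CPM in del7, against 7.85, 7.99, 10.5 and 8.14 CPM in del7_WT.

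Sequence shared with copies elsewhere in the genome was common. Outside overlapping loci, 76 of the 80 genes shared at least 1 window with 708 other genes in all, of which 670 are pseudogenes, and the median share was 49.3%. The 38 tested genes with at least 50% of windows shared had a median of 115 CPM per kb, and the 14 with under 25% had a median of 144 CPM per kb, a difference that was not tested. The largest shares were those of Rps27 (98.5%), Rpl5 (92.5%), Rpl10 (91.9%), Rps12 (89.5%), Rpl35 (89.2%), Rpl10a (87.6%), Rpl36a (84.6%) and Rpl9 (84.2%). Of these, Rps27 was among the 2 genes highest in level and Rpl35 among the 5 tested genes lowest. Among genes that shared none were Rps3, Rpl3l and Rpl39l, and in Rpl10l 0.316% of windows were shared. The pseudogenes took 15698 counts, and the 80 genes 1250832.

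**Figure D4:**
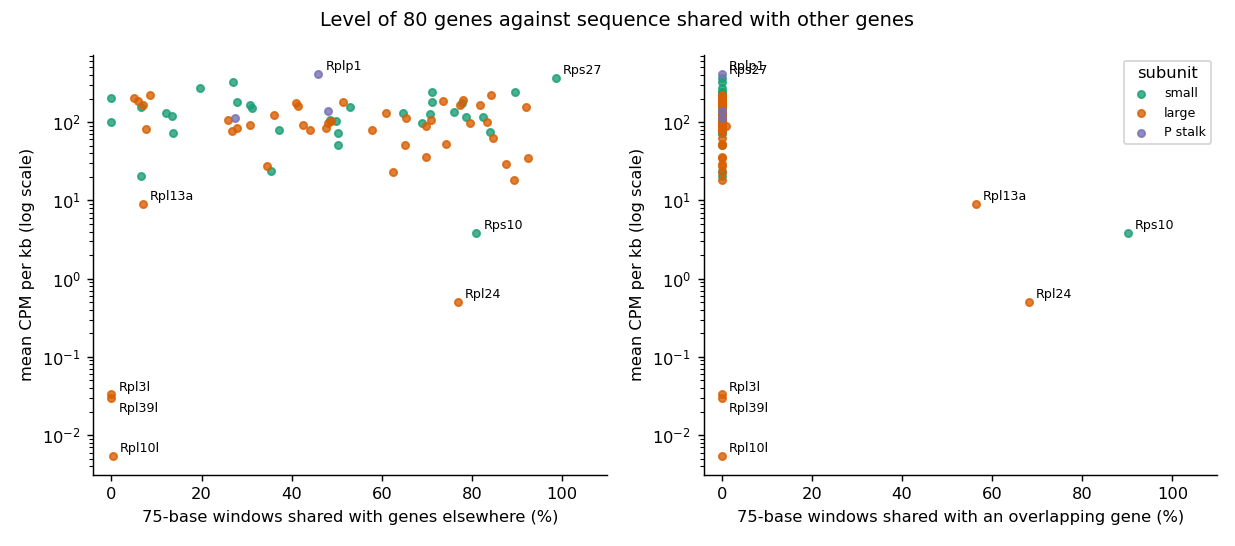
Mean CPM per kb over 16 libraries (log axis) of 80 ribosomal protein genes against the share of their 75-base windows found in genes elsewhere (left) or in a gene that overlaps them on the same strand (right), coloured by subunit. Rps10, Rpl13a and Rpl24 stand at the right of the second panel and low on the axis, and Rps27, with 98.5% of windows shared elsewhere, is near the top of both.

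The tissue-restricted paralogs were all but silent. Rpl3l, which replaces Rpl3 in heart and skeletal muscle, had 7 counts over all libraries, where Rpl3 had 24585. Rpl10l and Rpl39l, known from testis, had 1 and 3 counts, where Rpl10 had 22335 and Rpl39 had 8957. Skeletal muscle markers summed to at most 1.47 CPM in any library and testis markers to at most 0.140 CPM, and both maxima were in AUG_WT replicate 1. Rps4l, annotated as a transcribed pseudogene, had 340 counts, where Rps4x had 26828. Rps27l was different, with 11420 counts and 130 CPM per kb, where Rps27 had 22933 counts and 371 CPM per kb. Among related genes outside the rule, Rpl7l1 had 8386 counts, Rpl22l1 1705 and Rpl36al 591. None of these 3 passed edgeR's threshold in any comparison. In AUG, Rpl36al was 0.53 higher on the log2 scale (SE 0.28, edgeR adjusted p = 0.609), the opposite sign to Rpl36a (-0.34).

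A few copies were present in some livers and absent in others of the same group, and for those a gene's own counts were read beside the copy's. The genes were picked after their values were seen, as 7 with copies at a handful of counts in some libraries. The sequences below are 30-base stretches of the coding region of 3 genes and of their copies, from GENCODE M21 (GRCm38), with differing bases in capitals. They are shown because such bases help to assign a read to gene or copy. Rpsa is on chromosome 9 and Rpsa-ps10 on chromosome 3, Rps18 on 17 and Gm10260 on 13, and Rps15a on 7 and Rps15a-ps8 on 4.
Rpsa: ccatcgagaaTcctgctgaCgtcagcgtca
Rpsa-ps10: ccatcgagaaCcctgctgaTgtcagcgtca
Rps18: agaactcacggaggaTgaggtggagcgagt
Gm10260: agaactcacggaggaCgaggtggagcgagt
Rps15a: GtccTcatcaggcCAtgttctaaagTcatC
Rps15a-ps8: TtccCcatcaggcTGtgttctaaagCcatT
Counted from 1 at the left end of each stretch, with the gene's base first, the differences are T11C and C20T in Rpsa-ps10, T16C in Gm10260, and G1T, T5C, C14T, A15G, T26C and C30T in Rps15a-ps8. Over their whole aligned length, Rpsa-ps10 had 6 mismatches to Rpsa in 885 bases and Gm10260 had 6 to Rps18 in 547. Rps15a-ps8 was the most diverged of these 3, with 26 mismatches to Rps15a in 385 aligned bases and no 75-base window in common. Gm10260 is annotated as protein-coding and the others as processed pseudogenes.

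Rplp0, the base of the stalk, was among the genes that departed most from the shared shift, and its copies varied widely between livers. The copies are Gm8730 on chromosome 8 and Gm9625 on chromosome 13. Together they held 465, 2, 133 and 2 counts in AUG, against 563, 297, 282 and 5 counts in AUG_WT, and 252, 300, 184 and 217 counts in del7, against 301, 265, 129 and 237 counts in del7_WT. Rplp0 had 105, 197, 132 and 162 CPM in AUG, against 255, 150, 108 and 208 CPM in AUG_WT, and 154, 154, 158 and 107 CPM in del7, against 127, 150, 145 and 159 CPM in del7_WT. The highest Rplp0 level and the most copy counts were both in AUG_WT replicate 1. The copies' share of the pooled counts, which a low Rplp0 itself raises, ran from 0.0986% in AUG replicate 4 to 28.2% in AUG replicate 1. Rplp0 lay 0.57, 0.50 and 0.42 below the shared shift on the log2 scale in AUG replicate 1, AUG_WT replicate 3 and del7 replicate 4, where the shares were 28.2%, 22.9% and 20.1%. It lay 0.49, 0.13 and 0.17 above in AUG replicates 2 and 4 and AUG_WT replicate 4, where the copies had 2 to 5 counts, and also 0.31 and 0.24 above in AUG_WT replicates 1 and 2, where the shares were 13.4% and 15.8%. With the copies' counts added, the remaining SD of Rplp0 was 0.20, against 0.29 without them. The log2 ratio of group means for AUG over AUG_WT was -0.34 with the copies and -0.27 without.

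Gm10260, the copy of Rps18, had counts in 6 livers of the AUG line and next to none elsewhere. It had 103, 0, 1 and 162 counts in AUG, against 183, 117, 111 and 201 in AUG_WT, and at most 1 count in each del7 and del7_WT library. Rps18 itself had 98.2, 91.4, 88.9 and 90.6 CPM in AUG, against 111, 58.6, 88.5 and 116 CPM in AUG_WT, and 97.4, 99.7, 118 and 101 CPM in del7, against 79.2, 91.6, 114 and 108 CPM in del7_WT. With Gm10260 added, the remaining SD was 0.11, against 0.17 without it. The log2 ratio of AUG_WT over del7_WT was 0.12 with the copy and -0.07 without. The copy had counts in every AUG_WT library and next to none in del7_WT, so adding it raises this ratio whatever Rps18 does. Whether Rps18 lost reads to the copy was not tested. The log2 ratio of AUG over AUG_WT was -0.13 with the copy and -0.02 without.

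Rps15a, which had the second lowest log2 fold change in AUG, was the counterpart with a diverged copy. Rps15a-ps8 had 97, 70, 144 and 202 counts in AUG, against 1, 68, 0 and 108 in AUG_WT, 0 in every del7 library, and 92, 0, 54 and 0 in del7_WT. Rps15a had 49.2, 42.6, 40.7 and 40.0 CPM in AUG, against 97.2, 37.4, 49.3 and 63.7 CPM in AUG_WT, and 53.4, 48.5, 54.4 and 56.1 CPM in del7, against 35.9, 41.8, 51.9 and 52.1 CPM in del7_WT. The groups overlapped in both lines. The edgeR log2 fold change in AUG was -0.52 (SE 0.22, adjusted p = 0.561), and -0.20 without AUG_WT replicate 1. The log2 ratio of group means was -0.27 with the copy and -0.52 without in AUG, and 0.12 with and 0.22 without in del7. The copy's counts were higher in AUG than in AUG_WT and absent in del7. Adding them therefore raises the first ratio and lowers the second by itself. The remaining SD was 0.16 with the copy, against 0.19 without.

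In Rpsa, adding the copy made the remaining SD larger rather than smaller. Rpsa-ps10 held 1, 466, 603 and 0 counts in AUG, against 0, 424, 3 and 1 in AUG_WT, and 327, 596, 372 and 500 in del7, against 614, 622, 431 and 679 in del7_WT. Of the named copies of any gene it had the most counts, 5639. Rpsa had 199, 163, 149 and 177 CPM in AUG, against 226, 106, 189 and 196 CPM in AUG_WT, and 163, 155, 176 and 172 CPM in del7, against 128, 149, 167 and 177 CPM in del7_WT. Among the libraries with many Rpsa-ps10 counts, Rpsa was 0.41 below the shared shift in AUG_WT replicate 2. In the rest of them it lay between -0.12 (del7_WT replicate 1) and 0.11 (del7 replicate 4). Where the copy had 0 to 3 counts, Rpsa lay at 0.20 and 0.12 in AUG replicates 1 and 4. It lay at -0.0012, 0.16 and -0.060 in AUG_WT replicates 1, 3 and 4. Whether Rpsa lost reads to the copy was not tested. With the copy added, the remaining SD was 0.19, against 0.14 without it, and the log2 ratio of AUG_WT over del7_WT was -0.14 with the copy and 0.21 without. The copy had many counts in every del7_WT library and next to none in AUG_WT outside replicate 2. Adding it therefore lowers this ratio whatever Rpsa does.

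Of the other 3, Rpl14 and Rpl14-ps1 (4 mismatches and 3 gap bases over 653 bases) resembled Rpsa in which livers held the copy. Rpl14-ps1 had 1, 49, 68 and 6 counts in AUG, against 8, 61, 2 and 5 in AUG_WT, and 45 to 88 in del7, against 66 to 92 in del7_WT. The livers with at most 8 counts of Rpl14-ps1 were the same 5 that had at most 3 of Rpsa-ps10. The remaining SD of Rpl14 was 0.09 with the copy and 0.11 without. Rpl15 with Gm8420 (0 to 30 counts) and Rpl12 with Gm15793 (0 to 31 counts) moved by at most 0.01 in remaining SD. Counts at named copies made up 15.9% of the pooled counts of gene and copies for Rpsa, 8.90% for Rps15a, 5.06% for Rps10 and 4.23% for Rpl14.

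**Figure D5:**
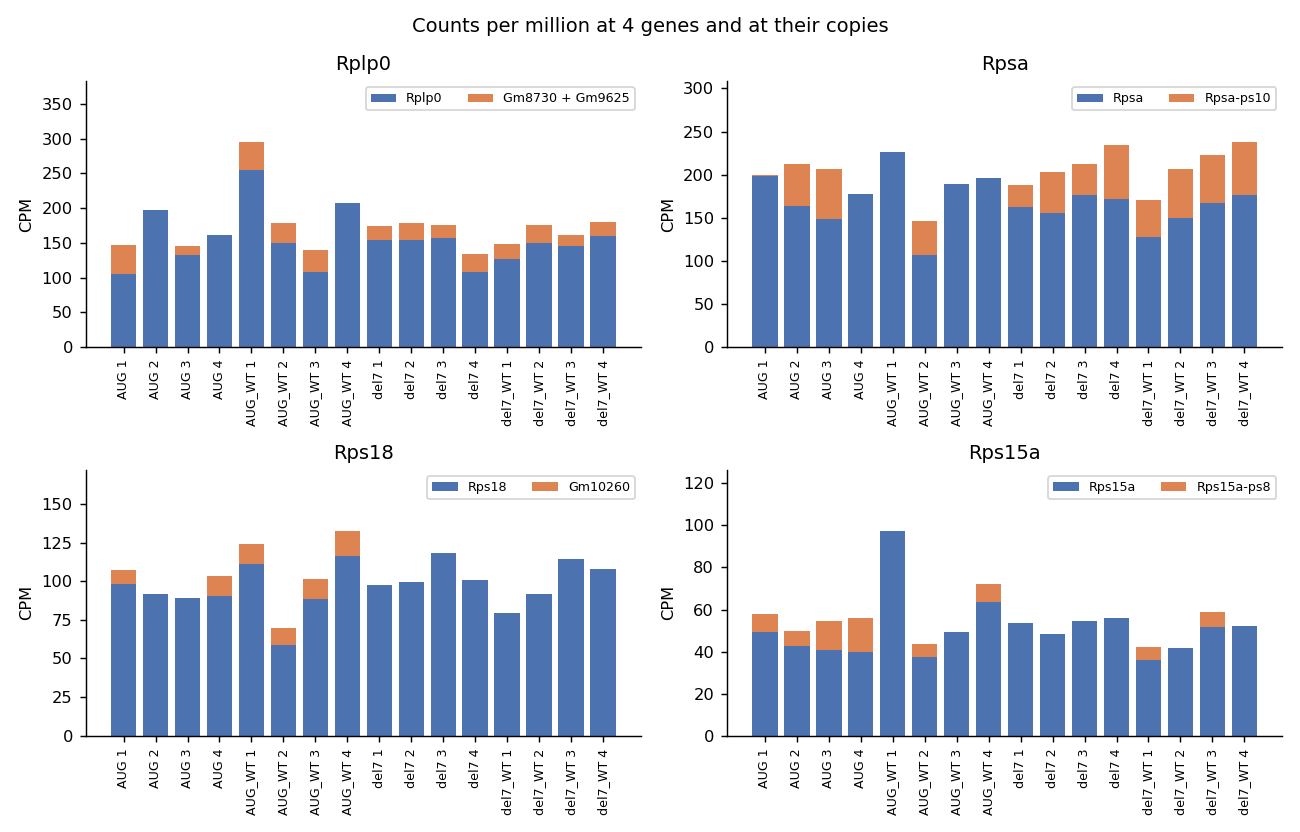
CPM at Rplp0, Rpsa, Rps18 and Rps15a (blue) and at their copies (orange, stacked) in each of 16 libraries. Rpsa-ps10 is at 0 to 3 counts in 5 livers of the AUG line and present in all 8 of the del7 line, and Gm10260 is at 0 to 1 count in all 8 livers of the del7 line.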

How the data were processed

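Liver RNA of 16 samples was sequenced after depletion of ribosomal RNA with a directional kit, per the labels' protocols. The submitters' processing notes name cutadapt 2.10, STAR 2.7.9a and GRCm39, and no annotation release. The values the authors deposited are raw counts per gene. In all 16 libraries they matched the per-sample counts of the reverse strand. Counts on the other strand were 0.284% to 0.434% of those of the ribosomal protein genes. Multimapping reads, 9.23% to 15.0% of a library, are not in the counts, so reads that match a gene and its copy equally are lost. Gene names and types came from GENCODE M21, which held 52081 of the 55357 IDs.

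From these, genes with enough counts (filterByExpr, at least 10) were scaled by TMM and fitted in edgeR 4.0.16 (R 4.3.3) with 1 mean per group over all 16 libraries and 12 residual degrees of freedom, 14421 genes in all, with Benjamini-Hochberg adjustment at 0.05. The script was tested on simulated data. CPM use the TMM library sizes, and log2 CPM a prior count of 2. DESeq2 1.42.0, limma 3.58.1, other scalings, filters and left-out libraries were alternatives. Shared windows came from GENCODE M21 transcripts (GRCm38), since no genome of the files' build was used here. They were read from the shortest principal transcript in place of the longest, which had been planned, because some longest forms hold retained introns. Named genes were those with the smallest p in each direction, separated groups, or extreme fold, level or shared windows, with the stalk, Rpsa, Fau and the paralogs, and any others are said to be chosen later. The genes and lists were chosen with earlier results of these data known. Some results are not reported here.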

Additional observations from a re-analysis of the deposited data

Results flagged for a closer look

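Of 68 checks of a group of 4 libraries, 7 had a single library far from the other 3, where chance gives about 1 in 20. The checks covered the mean deviation and share of counts of the ribosomal protein genes, and the CPM of 15 genes. They are not independent, and some of the genes were chosen after their values were seen, so that rate is only a rough guide. In del7, the mean deviation was 0.12 in replicate 3, Rplp0 had 107 CPM in replicate 4, Rps18 had 118 CPM in replicate 3, Rpl41 had 59.2 CPM in replicate 2 and Rpl21 had 59.3 CPM in replicate 1. In del7_WT, Rpl14 had 76.01 CPM in replicate 1 and Rpl13a had 10.5 CPM in replicate 3. AUG_WT replicate 1 did not pass this check for the mean deviation, since AUG_WT replicate 4 was also high.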

How the results depend on the processing

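No ribosomal protein gene was called in any of 91 alternative fits over the 4 comparisons. With all 8 wild types as control, the del7 median was -0.04 with 60 ribosomal protein genes below 0, against -0.03 over all genes. Elsewhere the median log2 fold change kept its sign. Over left-out libraries it ranged from -0.31 to -0.09 in AUG, 0.01 to 0.12 in del7, -0.38 to -0.14 for the difference and 0.11 to 0.32 between the wild types, and the number of genes below 0 ranged from 62 to 75, 1 to 31, 68 to 75 and 0 to 9. With total counts in place of TMM the medians were -0.32, 0.11, -0.42 and 0.35, against -0.09, 0.04, -0.13 and 0.11 over all genes. The genes below 0 were then 1 in del7 and 0 between the wild types. Between the wild types that number was 4 with upper-quartile scaling, 6 with no filter and 4 with limma. Genes called among all genes were 9 with DESeq2 in AUG (4 with edgeR) and 70 between the wild types (5 with edgeR), where the fit of these 2 groups alone called 13.

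The labels do not say what a replicate number shares, and pairing by number was not supported in every pair: correlations of same-numbered libraries ranged from -0.16 to 0.35 between AUG and AUG_WT and from 0.09 to 0.28 between del7 and del7_WT. With a replicate block the medians were -0.22, 0.07, -0.29 and 0.23, and 0 genes were called. Replicates 1 and 2 differed from 3 and 4 in all 4 groups for some genes, and with that split as a term, an alternative added after seeing the data, the medians were -0.23, 0.07, -0.29 and 0.24, and Rplp1 in del7 was at 0.010. Some single genes changed sign. In del7 with total counts, Rps15 was at 0.00028, Rps27l at 0.020, Rplp0 at 0.013 and Rplp1 at 0.031. Rplp1 was at 0.017 with the block and 0.0040 with limma. With all 8 wild types, Rpl13 was at -0.0099 and Rpl18 at -0.017. Rps18 between the wild types was at 0.051 with total counts. Over left-out libraries, del7 values ranged from -0.12 to 0.027 for Rpl27a, -0.11 to 0.053 for Rps15, -0.065 to 0.042 for Rps27l, -0.081 to 0.088 for Rplp0 and -0.11 to 0.13 for Rplp1. In AUG, Rps2 ranged from -0.050 to 0.23 and Rps27l from -0.02 to 0.30, and Rps18 between the wild types from -0.20 to 0.086. In an added fit of AUG and AUG_WT alone without AUG_WT replicate 1, the median was -0.09, Rps27l was at -0.019 and Rps2 at -0.011. With unstranded counting Rpl23a fell under the filter, and the medians were -0.22, 0.08, -0.29 and 0.24.

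The median share of windows found elsewhere was 55.5% for 50-base and 41.4% for 100-base windows, and 40.3% for 75-base windows of the longest transcript. The share of reads at named copies was 0.691% of those of all 80 genes and copies, and 0.837% with unstranded counting. Adding copies, chosen after seeing the data, moved the Rpsa ratio between the wild types from 0.21 to -0.14. The copy's own counts lower that ratio whatever Rpsa does. Depth limits Rps10 (4 to 44 counts a library) most among the tested genes, and a fold of Rpl24 or the silent paralogs cannot be given.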
